A study of Mus musculus with 61 samples.

Results

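Mdm2, Mdm4, Ccng1, Ppm1d and Trp53inp1 are p53-linked genes whose products act back on the p53 protein or its activity. They were chosen by name, with earlier results of these data known, and all 5 had a row among the 23927 gene rows of the table. Their transcripts were followed in single ovarian cells of WT CD-1 mice, an outbred stock, at postnatal day 5. The animals had received an intraperitoneal injection of solvent, which is the control, or of doxorubicin, an anti-cancer drug that damages DNA, 6 hours earlier. The 61 libraries, each made from 1 cell, comprised 16 control oocytes, 16 doxorubicin oocytes, 16 control granulosa cells and 13 doxorubicin granulosa cells. All carried the same genotype, and their column names had the same ending, which does not say how cells were collected or libraries made. The dose is uncertain, since its unit is given as mg/kb (10 mg/kb), which does not describe an amount per body weight. No animal was named for any cell, and each group therefore counted as 1 sample. No difference was tested, and all intervals are 95% intervals. Those of levels and ratios cover counting error only and leave out the spread between cells and animals. Those of shares of cells take the cells as independent draws, which cells of unknown animals may not be. For shares above every control, they also take the highest control as fixed. They describe these cells and not the effect of the drug over animals. The reads carry no molecular identifiers, so PCR copies of 1 molecule are counted as several.

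The p53 protein is a transcription factor that accumulates after DNA damage and switches on genes for cell cycle arrest and cell death. Among its targets are genes that limit p53 itself. The ubiquitin ligase MDM2 marks p53 for degradation, and its relative MDM4 binds and inhibits p53 and pairs with MDM2. Cyclin G1, made by Ccng1, recruits a phosphatase that acts on MDM2, and the phosphatase PPM1D, also called WIP1, removes the phosphate marks that the DNA damage kinases place on p53 and on other proteins. TP53INP1 differs from the other four: it is a stress-induced cofactor known for promoting p53 phosphorylation and p53-driven death, so it is usually placed in a positive loop. In oocytes the p53 relative p63 is known as a guardian that removes cells with DNA damage.

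In the GENCODE M21 annotation of GRCm38, Mdm2 lies on the minus strand of chromosome 10 (117688875 to 117710758) and Mdm4 on the minus strand of chromosome 1 (132959484 to 133030561). Ccng1 (40748552 to 40755311, minus strand) and Ppm1d (85311244 to 85347066, plus strand) are both on chromosome 11, and Trp53inp1 is on the plus strand of chromosome 4 (11156431 to 11174379). Among the 5, only Mdm4 overlapped another annotated gene, the processed pseudogene Gm29257 on the opposite strand, which had no row in the table. The 250 bases upstream of the start were read from RefSeq promoters of GRCm38.p6, which matched 4 of the 5 genes. They were searched on both strands for the p53 half-site decamer, for a pair of such decamers up to 13 bases apart with at most 1 mismatch in all, and for TGACGTCA, the palindrome bound by CREB and ATF factors. The windows that held a match are shown, so that the matched letters can be read in their context. Capitals mark the matches, and positions are counted back from the start.
Mdm2: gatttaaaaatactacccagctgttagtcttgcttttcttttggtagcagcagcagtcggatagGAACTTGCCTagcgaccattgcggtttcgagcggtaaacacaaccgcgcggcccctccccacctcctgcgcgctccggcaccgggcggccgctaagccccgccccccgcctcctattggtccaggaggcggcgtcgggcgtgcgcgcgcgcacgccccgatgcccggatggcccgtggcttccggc
Ccng1: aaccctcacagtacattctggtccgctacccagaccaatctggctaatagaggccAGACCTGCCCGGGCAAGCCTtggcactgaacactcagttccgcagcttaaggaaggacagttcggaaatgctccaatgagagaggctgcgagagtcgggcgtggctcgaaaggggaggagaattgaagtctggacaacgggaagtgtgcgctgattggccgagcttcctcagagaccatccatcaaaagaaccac
Ppm1d: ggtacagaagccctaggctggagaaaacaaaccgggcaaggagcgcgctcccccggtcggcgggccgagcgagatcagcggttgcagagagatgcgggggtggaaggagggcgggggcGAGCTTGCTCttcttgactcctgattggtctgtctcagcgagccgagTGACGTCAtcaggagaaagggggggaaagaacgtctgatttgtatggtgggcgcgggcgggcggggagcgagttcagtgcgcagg
The Mdm2 window (chr10:117710759-117711008, minus strand) held 1 half-site match, GAACTTGCCT, at -186 to -177. The Ccng1 window (chr11:40755287-40755536, minus strand) held the pair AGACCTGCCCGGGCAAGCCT at -195 to -176 with 1 mismatch, and the downstream decamer of that pair matched the half-site in full. The Ppm1d window (chr11:85311004-85311253, plus strand) held the half-site match GAGCTTGCTC at -132 to -123 and TGACGTCA at -85 to -78. No match lay in the Mdm4 windows. Of 32851 promoter windows of this length, 7.13% held a half-site, 0.898% a pair and 1.55% TGACGTCA. These matches describe letters in a window and not binding, which was not measured here.

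Total counts per library ranged from 6834594 to 31262609, and the deepest library was control oocyte 16. Markers were compared as the summed CPM (counts scaled to a library of 1000000) of 19 oocyte genes and 19 granulosa genes. All 32 oocytes had the higher oocyte marker sum. Doxorubicin oocytes 9, 11 and 12 also carried granulosa marker sums of 3217, 2673 and 2069 CPM, against a median of 80.6 CPM in their group. Several granulosa libraries went against their label. Oocyte markers summed higher than granulosa markers in 4 of 16 control libraries (2, 8, 13 and 14) and in 8 of 13 doxorubicin libraries (1, 2, 4, 6, 7, 9, 10 and 12). The whole set is called the libraries labelled granulosa, and its ratios are given also for the 17 libraries with granulosa markers above oocyte markers (12 control and 5 doxorubicin). Even among these, stroma markers exceeded granulosa markers in control library 16 (4384 against 805 CPM) and doxorubicin library 13 (7961 against 2204 CPM). Doxorubicin library 15 carried 33378 CPM of blood and immune markers, of which 6 were measured. Over the doxorubicin libraries labelled granulosa, the globin genes Hba-a1 and Hbb-bs stood at 1452 and 882 CPM. The immune genes were at 1.34 CPM for Csf1r, 0.007 CPM for Cd68 and 0 for Ptprc and Lyz2. CPM is a share, so more of a transcript and less of all other RNA cannot be told apart.

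After doxorubicin the oocytes held more transcript of Mdm2, Ccng1 and Trp53inp1, somewhat more of Ppm1d, and a nearly equal summed level of Mdm4. The log2 ratio of summed CPM was at least 1 for 3 of the 5 genes, against 6.3% of the 11119 genes that reached 5 CPM in an oocyte group. The median of the 5 ratios was 1.10 against 0.0087 over all genes, and the ratio of Mdm4 was within counting error of 0. Mdm2, Ccng1 and Trp53inp1 also exceeded the highest control oocyte in at least 8 of 16 doxorubicin oocytes, which 1.96% of the genes did. Among the 12 doxorubicin and 10 control oocytes with under 200 CPM of granulosa markers the ratios were 1.88 for Mdm2, 0.32 for Mdm4, 1.78 for Ccng1, 0.71 for Ppm1d and 1.20 for Trp53inp1.

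Mdm2, the ligase, was expressed in every oocyte. Control oocytes lay close together, from 111 CPM through a median of 162 CPM to 207 CPM. Doxorubicin oocytes ran from 75.2 CPM through a median of 590.3 CPM to 1898 CPM. The highest were oocytes 10 and 4, and 9 of 16 (56.25%, exact binomial interval 29.9 to 80.2%) stood above every control oocyte, while oocyte 16 stood below all of them. The summed level was 159 CPM (157 to 160.4) in controls and 673 CPM (669.5 to 677) after the drug, a log2 ratio of 2.09 (2.07 to 2.10). The ratio was 1.86 without doxorubicin oocyte 4, whose raw data are stated to be lost.

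Mdm4, which makes the partner of MDM2, had like levels in both groups. Its levels ran from 76.2 CPM through a median of 227 CPM to 394 CPM in control oocytes. They ran from 82.7 CPM through a median of 194 CPM to 432 CPM after doxorubicin. The ranges overlapped almost entirely, and 2 of 16 doxorubicin oocytes (2 and 3) exceeded the highest control. The summed levels were 224 CPM (222 to 226) and 225 CPM (223 to 228), with a log2 ratio of 0.0069 (-0.013 to 0.026), and the ratio ranged from -0.11 to 0.07 when single cells were left out.

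Ccng1, which makes cyclin G1, was low but detected in every control oocyte, from 7.79 CPM through a median of 24.9 CPM to 63.8 CPM. Doxorubicin oocytes ran from 20.2 CPM through a median of 101 CPM to 237 CPM. In 10 of 16 (62.5%, 35.4 to 84.8%) the level was above every control oocyte, and oocyte 11 was the highest. Summed over cells, Ccng1 stood at 30.3 CPM (29.5 to 31.1) in controls and 102 CPM (101 to 104) after the drug, and the log2 ratio was 1.76 (1.72 to 1.80).

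Ppm1d, the phosphatase gene, differed less. Control oocytes ran from 10.1 CPM through a median of 33.0 CPM to 125 CPM, and doxorubicin oocytes from 0.18 CPM in oocyte 12 through a median of 45.5 CPM to 134 CPM in oocyte 3. The groups overlapped almost throughout, and only oocyte 3 exceeded the highest control, oocyte 10. Over all cells Ppm1d stood at 38.5 CPM (37.6 to 39.3) and 53.8 CPM (52.8 to 54.9), with a log2 ratio of 0.49 (0.44 to 0.53) that ranged from 0.33 to 0.63 over leaving out single cells.

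Trp53inp1, the cofactor of the positive loop, had a smaller ratio than Mdm2 and Ccng1, and the lower end of its distribution also lay higher. Control oocytes ran from 0.13 CPM in oocyte 10 through a median of 32.5 CPM to 65.6 CPM in oocyte 16. Doxorubicin oocytes ran from 47.4 CPM through a median of 70.0 CPM to 134 CPM. The lowest doxorubicin oocyte was thus above 13 of the 16 control oocytes, and 10 of 16 doxorubicin oocytes were above all of them. For Mdm2 the lowest doxorubicin oocyte was above 0 of 16 control oocytes, and for Ccng1 it was above 7. Summed Trp53inp1 counts gave 36.2 CPM (35.4 to 37.1) and 77.5 CPM (76.2 to 78.8), and their log2 ratio was 1.10 (1.06 to 1.14). Leaving out control oocyte 16 gave 1.34 and leaving out doxorubicin oocyte 4 gave 1.01.

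**Figure D1:**
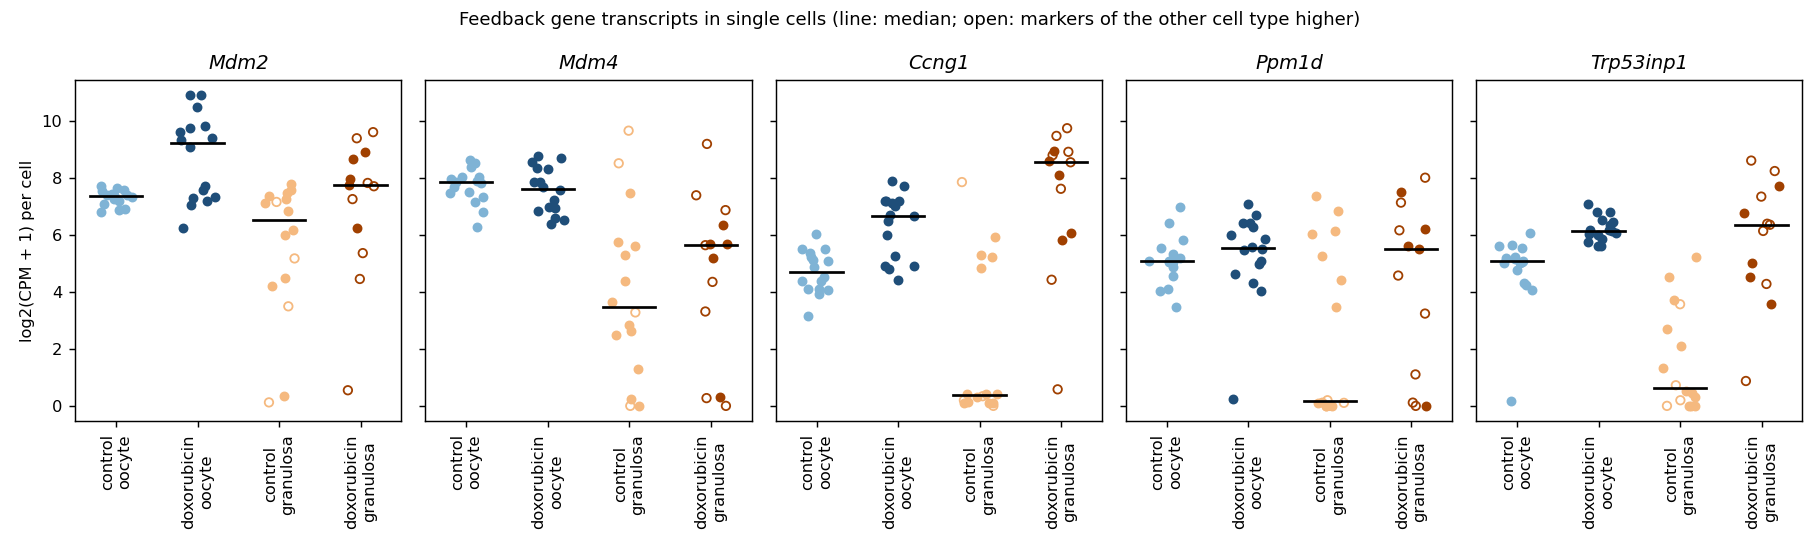
Level of each feedback gene in every library, as log2(CPM + 1), in 1 panel per gene; each point is 1 cell, the black line is the group median and open points are libraries in which markers of the other cell type summed higher. In doxorubicin oocytes Mdm2, Ccng1 and Trp53inp1 shift upward while Mdm4 does not, and libraries labelled granulosa spread from 0 to the highest levels for Mdm4, Ccng1 and Ppm1d.

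Most oocytes above every control for any of these genes were so for more than 1 of them, and oocyte 2 was so for Mdm4 alone. The 10 oocytes above every control for Ccng1 were the 10 above every control for Trp53inp1, namely 1, 3, 4, 5, 7, 9, 10, 11, 12 and 13. All but oocyte 12 were also the 9 above every control for Mdm2. Oocyte 3 exceeded the highest control for all 5 genes, while oocytes 6, 8, 14, 15 and 16 exceeded it for none. The share of all genes above the highest control was not taken for single oocytes, so these counts per oocyte have nothing to be set against. Cdkn1a, which makes the cell cycle inhibitor p21 and is a direct p53 target, was above every control in 12 oocytes, of which 9 were among the 10 of Ccng1. Oocytes 6, 8 and 14 exceeded the controls for Cdkn1a and for none of the 5 feedback genes.

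Over the 16 doxorubicin oocytes, log2(CPM + 1) of Mdm2 had a Pearson r of 0.83 and a Spearman rho of 0.76 with Ccng1. With Trp53inp1 the values were 0.80 and 0.74, and with Ppm1d 0.61 and 0.78. Mdm2 and Mdm4 were less alike, with 0.24 and 0.33. Over the 16 control oocytes Mdm2 had 0.14 and 0.12 with Ccng1 and -0.41 and -0.56 with Trp53inp1. The levels of 1 cell share its library and depth. Over the doxorubicin oocytes Mdm4 had a Pearson r of 0.60 with the total count and 0.57 with the number of genes detected. These values were 0.13 and 0.49 for Mdm2, -0.04 and 0.38 for Ccng1, 0.43 and 0.43 for Trp53inp1, and 0.05 and 0.36 for Ppm1d. The part of depth in these relations was not tested.

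**Figure D2:**
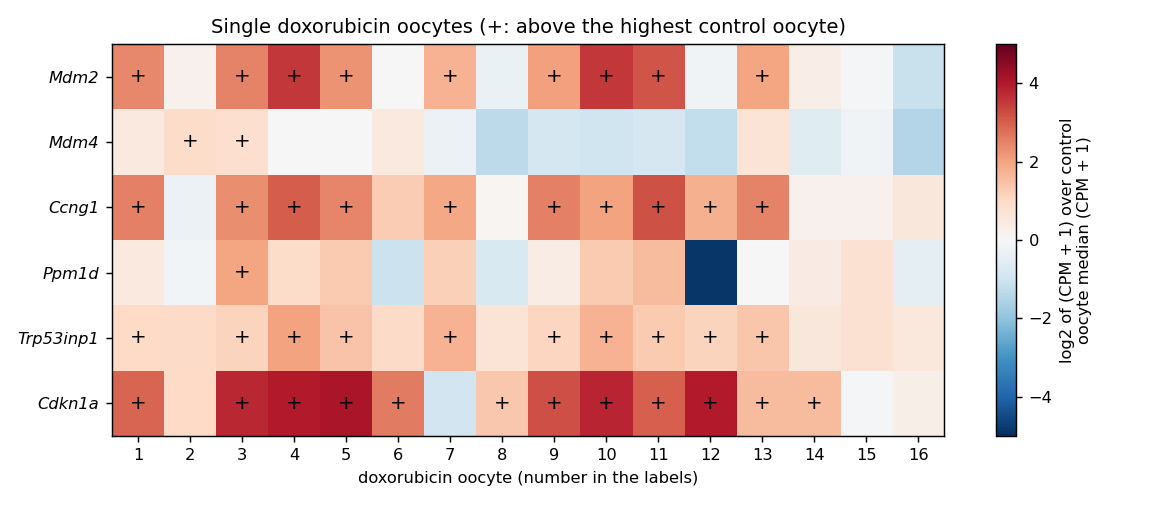
Each column is 1 doxorubicin oocyte and each row 1 gene; the colour is the log2 of the CPM + 1 over the median control oocyte, and a plus marks a level above the highest control oocyte. The plus signs of Ccng1 and Trp53inp1 fall on the same 10 oocytes, and those of Mdm2 on 9 of them.

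In the libraries labelled granulosa, 4 of the 5 genes had a log2 ratio of at least 1, against 20.6% of the 12194 genes that reached 5 CPM in a granulosa group. A ratio of this size was thus common in these libraries. The median of the 5 ratios was 1.47 against -0.03 over all genes, but Mdm4 had no stable sign and Ppm1d turned to -0.09 under a marker limit, as given below. Ccng1 and Trp53inp1 stood above the highest control library in at least 7 of 13 doxorubicin libraries, which 0.631% of the genes did. In the 17 libraries whose granulosa markers summed higher (12 control and 5 doxorubicin), 3 of the 5 genes had a ratio of at least 1, namely Mdm2, Ccng1 and Trp53inp1, against 18.8% of 11886 genes. The same 3 of 5 reached 1 when only libraries with granulosa markers above every other marker sum were kept (11 control and 3 doxorubicin). The share of all genes was not taken for that subset, so its count has nothing to be set against.

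For Mdm2, control libraries ran from 0.088 CPM through a median of 92.2 CPM to 221 CPM. Doxorubicin libraries ran from 0.46 CPM in library 6 through a median of 215 CPM to 774 CPM in library 1. The groups overlapped, and 6 of 13 were above every control. The summed levels were 97.03 CPM (95.6 to 98.5) and 268 CPM (265 to 271), with a log2 ratio of 1.47 (1.44 to 1.49) that was 1.37 in the libraries with their own markers higher. In those 5 doxorubicin libraries (8, 13, 14, 15 and 16) Mdm2 stood at 401, 73.6, 474, 245 and 215 CPM, so that library 13, with its high stroma markers, was the low one. Without it the ratio in these libraries was 1.63, and its part in the value was not tested.

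Mdm4 was patchy in the same libraries. It ran from 0 through a median of 10.0 CPM to 802 CPM in controls and from 0 through a median of 48.7 CPM to 581 CPM after doxorubicin. Control library 8 held 57.0% of the Mdm4 counts of its group and doxorubicin library 4 held 52.3%, and in both the oocyte markers summed higher. None of 13 doxorubicin libraries exceeded the highest control. The summed levels of 88.7 CPM (87.3 to 90.1) and 94.3 CPM (92.7 to 95.9) gave a log2 ratio of 0.088 (0.055 to 0.12). Leaving out control library 8 gave 1.21, leaving out doxorubicin library 4 gave -0.85, and the ratio was 0.42 in the libraries with their own markers higher. No direction can be given for Mdm4 here.

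Ccng1 had at least 5 reads in 5 of 16 control libraries (31.25%, 11.02 to 58.7%) and in all 13 doxorubicin libraries (75.3 to 100%). After each library was thinned to 1000000 counts the numbers were 5 and 12. Levels ran from 0 through a median of 0.29 CPM to 229 CPM in controls, and from 0.49 CPM in library 4 through a median of 372 CPM to 852 CPM in library 2 after doxorubicin. Control library 13 alone, in which oocyte markers summed higher and stroma markers reached 13316 CPM, held 60.8% of the control counts. The summed levels were 25.8 CPM (25.0 to 26.5) and 334 CPM (331 to 337), a log2 ratio of 3.70 (3.65 to 3.74). Over all libraries it was 4.94 without control library 13 and 3.50 without doxorubicin library 2. In the libraries with their own markers higher it was 4.24. Doxorubicin libraries 8, 13, 14, 15 and 16 held 490.5, 65.4, 55.9, 386 and 270.2 CPM, and 8 of 13 libraries were above every control.

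Ppm1d depended on which libraries were used. It ran from 0 through a median of 0.12 CPM to 164 CPM in controls and from 0 through a median of 43.7 CPM to 255 CPM after doxorubicin, and 2 of 13 libraries exceeded the highest control. Summed Ppm1d counts gave 29.9 CPM (29.1 to 30.8) and 63.3 CPM (62.0 to 64.6), a log2 ratio of 1.08 (1.03 to 1.13). The ratio was under 1 without any of control libraries 2, 3, 4, 5, 7, 8 and 13 (0.97 to 0.99) and without doxorubicin library 1 (0.72), 2 (0.93) or 14 (0.80). It was 0.82 in the libraries with their own markers higher and -0.09 in those with at least 5000 CPM of granulosa markers (7 doxorubicin and 10 control). That limit kept doxorubicin libraries 7, 9 and 12, in which oocyte markers summed higher and Ppm1d stood at 1.15, 8.42 and 0 CPM. The 4 control libraries with oocyte markers higher held 2 Ppm1d counts in all.

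Trp53inp1 was low in most control libraries labelled granulosa but had at least 5 reads in 9 of 16 of them (56.25%), and in all 13 doxorubicin libraries. After thinning to 1000000 counts the numbers were 4 and 12. Control libraries ran from 0 through a median of 0.55 CPM to 35.9 CPM in library 11. Doxorubicin libraries ran from 0.83 CPM in library 1 through a median of 80.6 CPM to 387 CPM in library 2, and 8 of 13 were above every control. Summed over libraries, Trp53inp1 stood at 5.69 CPM (5.35 to 6.05) and 112 CPM (110.4 to 114), a log2 ratio of 4.30 (4.21 to 4.39). The ratio was 3.40 in the libraries with their own markers higher, where doxorubicin libraries 8, 13, 14, 15 and 16 held 10.9, 31.02, 21.8, 206 and 108 CPM. It was 2.65 in these libraries without library 15, which had the high blood and immune marker sum, and 2.61 where granulosa markers exceeded every other marker sum. Over all libraries it was 4.90 without control library 11 and 3.98 without doxorubicin library 2. The part of the other cell types' markers in these values was not tested.

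**Figure D3:**
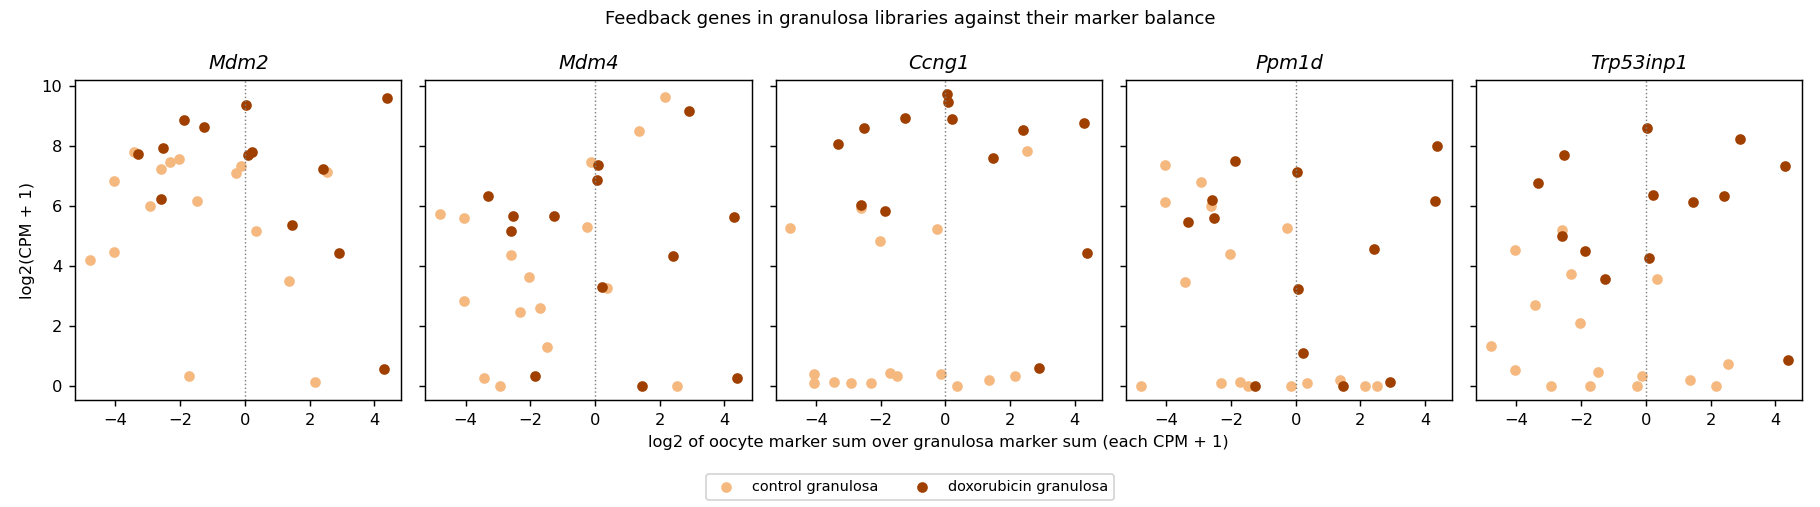
Level of each feedback gene, as log2(CPM + 1), in libraries labelled granulosa against the log2 of the oocyte marker sum over the granulosa marker sum; points right of the dotted line have the higher oocyte sum. Doxorubicin libraries on the left, with granulosa markers higher, still hold Mdm2, Ccng1 and Trp53inp1 in all 5 cases, whereas Ppm1d is at 0 in 1 of them.

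**Figure D4:**
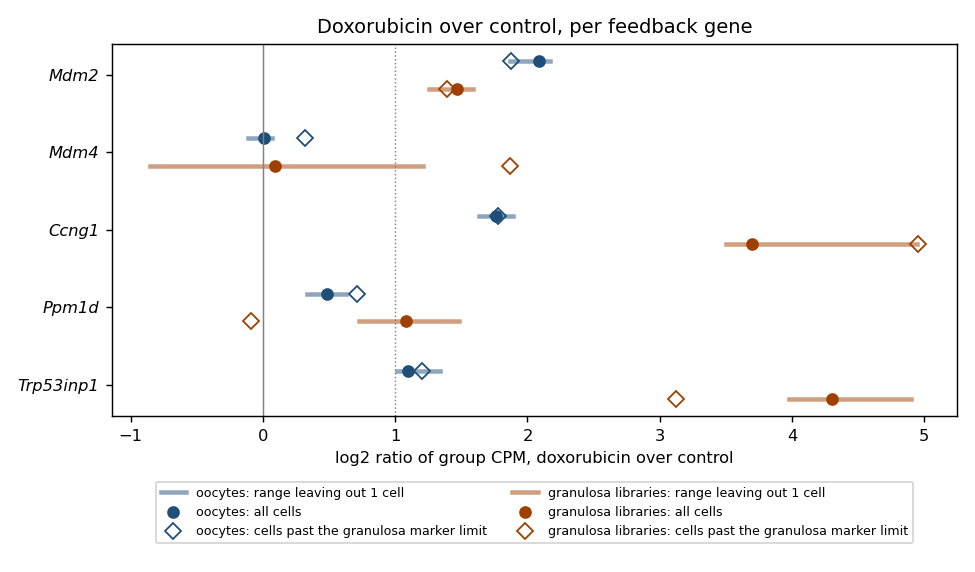
Log2 ratio of summed CPM, doxorubicin over control, for each gene in oocytes and in libraries labelled granulosa; filled points use all cells, bars span the values when 1 cell is left out, open diamonds use only oocytes under 200 CPM or granulosa libraries of at least 5000 CPM of granulosa markers, and the dotted line is a ratio of 1. In oocytes the bars are short for all 5 genes, and that of Mdm4 spans 0, from -0.11 to 0.07. In granulosa libraries the bar of Mdm4 also spans 0, from -0.85 to 1.21. Doxorubicin granulosa libraries 7, 9 and 12 pass the limit of 5000 CPM although their oocyte markers summed higher.

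Between cell types, control oocytes held the higher summed level of all 5 genes, as they did for 49.3% of all genes, although the sign of Ppm1d turned in a subset of libraries. The log2 ratio of control oocytes over control libraries labelled granulosa was at least 1 for 2 of the 5, against 29% of 12373 genes. Against the 12 control granulosa libraries with granulosa markers above oocyte markers it was at least 1 for 3 of the 5, also against 29%, of 12349 genes. Trp53inp1 had a ratio of 2.67 (2.57 to 2.77) and Mdm4 of 1.34 (1.31 to 1.36). Mdm4 had 2.46 without control library 8 and 1.23 without control library 10. Mdm2 followed with 0.71 (0.68 to 0.74), Ppm1d with 0.36 (0.31 to 0.41) and Ccng1 with 0.23 (0.18 to 0.29). The value of Ccng1 was 1.48 without control library 13 and 0.099 without control oocyte 16. Against the 12 libraries with their own markers higher the ratios were 2.84 for Mdm4, 2.499 for Trp53inp1, 1.19 for Ccng1, 0.51 for Mdm2 and -0.04 for Ppm1d. Trp53inp1 exceeded the highest control granulosa library in 5 of 16 control oocytes, and the others of the 5 genes did so in none. At a limit of at least 8 control oocytes, 0 of the 5 genes did so, against 11.2% of all genes. The share of all genes was not taken at a lower limit.

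Per kilobase of the longest annotated transcript, the order of summed levels in control oocytes was Mdm2 (50.4 CPM per kb), Mdm4 (31.6), Ppm1d (13.3), Ccng1 (8.62) and Trp53inp1 (6.67). In doxorubicin oocytes Mdm2 stood at 214 CPM per kb, Mdm4 at 31.7, Ccng1 at 29.2, Ppm1d at 18.6 and Trp53inp1 at 14.3. Ccng1 had thus moved from below Ppm1d to a level near Mdm4. In doxorubicin libraries labelled granulosa Ccng1 (95.1 CPM per kb) stood beside Mdm2 (85.2), followed by Ppm1d (21.8), Trp53inp1 (20.6) and Mdm4 (13.3). In the 5 of them with their own markers higher Mdm2 (91.8 CPM per kb) stood above Ccng1 (71.7), followed by Ppm1d (24.04), Trp53inp1 (12.5) and Mdm4 (5.89). The ranges over cells, per kilobase, overlapped between neighbours in each of these 4 orders.

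The wider pathway was described with lists that leave the 5 genes out and were also chosen with earlier results of these data known. Of 34 other p53 targets with a row, 31 reached 5 CPM in an oocyte group. Of these, 26 had a ratio above 0, against 51.1% of all genes, and 13 a ratio of at least 1, against 6.3%, with a median of 0.74. The top 3 were Eda2r, a death receptor gene, Phlda3, an inhibitor of AKT, and Psrc1, a spindle protein gene. Eda2r went from 0.31 to 31.6 CPM (log2 ratio 6.69), and without control oocyte 9 the ratio was 10.52 (9.16 to 12.39) on 4 control counts. Without control oocyte 16 it was 6.46. Phlda3 went from 1.71 to 38.1 CPM (4.48) and Psrc1 from 0.68 to 11.1 CPM (4.02). These 3 were under 5 CPM in controls and passed the filter through the doxorubicin oocytes alone. Of the 13 at 1 or more, Plk2, Pmaip1, Bbc3 and Apaf1 did so too. Their entry thus depended on the rise that is counted, as it can for any of the genes behind the shares. The ratio of Psrc1 was 4.74 without control oocyte 4 and 3.65 without doxorubicin oocyte 4. The lowest of the 31 were the repair gene Ddb2 at -0.27 and Tigar, a regulator of glycolysis, at -0.47. The targets that did not pass the filter were Tnfrsf10b, Fas and Gdf15. Tnfrsf10b went from 4.36 to 1.56 CPM (-1.48) and Fas from 0 to 3.17 CPM (7.69). Gdf15 stood at 0.04 CPM in both groups. In libraries labelled granulosa 29 of 34 targets were above 0, against 48.9% of all genes, and 20 were at least 1, against 20.6%. There too some targets, such as Pidd1, Gdf15 and Pmaip1, passed the filter through the doxorubicin libraries alone. With own markers higher, 26 of 32 were above 0, against 45.4%, and 16 were at least 1, against 18.8%.

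Genes for other regulators of the p53 protein had ratios near 0 in oocytes. Of 22 that passed the level filter, 8 were above 0, against 51.1% of all genes, and 14 below, and the median was -0.18. At 1 or more there were 0, against 6.3% of all genes, and at -1 or less 0, against 2.45%. Highest were the ribosomal proteins Rpl5 (0.34) and Rpl11 (0.23), which are known to bind MDM2, and Daxx (0.21). Lowest were the ubiquitin ligases Ube4b (228 to 162 CPM, -0.49) and Cop1 (161 to 112 CPM, -0.52). In libraries labelled granulosa 6 of 24 were above 0, against 48.9% of all genes. There 3 were at 1 or more, against 20.6%, and 7 at -1 or less, against 20%. With own markers higher, 9 of 24 were above 0, against 45.4% of all genes. Of these 24, 1 was at 1 or more, against 18.8%, and 8 were at -1 or less, against 22.8%.

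The closest relatives of the feedback genes had ratios near or below 0 in oocytes, apart from Ppm1g. Ccng2, the other cyclin G gene, had a ratio of -0.52 where Ccng1 had 1.76, and Trp53inp2 had -0.23 where Trp53inp1 had 1.10. Of the phosphatase relatives of Ppm1d, Ppm1g had 0.51, Ppm1b -0.08 and Ppm1a -0.12. The signs of Trp53inp2, Ppm1b and Ppm1a turned in oocytes under 200 CPM of granulosa markers, to 0.10, 0.04 and 0.09. In libraries labelled granulosa 4 of these 5 relatives were above 0, against 48.9% of all genes, and 1 was at least 1, against 20.6%. That 1 was Trp53inp2, from 4.34 to 21.5 CPM (2.31), with 4 of 13 doxorubicin libraries above every control. Ccng2 had -0.59 there. Among the p53 family, Trp53 itself went from 62.0 to 81.4 CPM (0.39) and Trp63, which encodes p63, from 97.3 to 91.3 CPM (-0.09). Trp73, for p73, went from 1.56 to 49.0 CPM, and 7 of 16 doxorubicin oocytes were above every control. Its ratio was 4.97, with 5.97 without control oocyte 6 and 4.42 without doxorubicin oocyte 5.

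The genes most like each feedback gene were ranked by Spearman rho of log2(CPM + 1) over the 32 oocytes of both groups, so the rank holds the difference between groups as well as that between cells. For Mdm2 these were Coro2a (0.80), the pro-death gene Bbc3 (0.79) and Ankrd65 (0.78). For Ccng1 they were Trim7 (0.82), Pard6g (0.79) and Myod1 (0.77), and for Trp53inp1 Fermt3 (0.81), Myod1 (0.80) and Slc6a8 (0.80). Fermt3 went from 1.47 to 242 CPM, Slc6a8 from 0.49 to 165 CPM and Myod1 from 0 to 13.1 CPM. Mdm4 was most like Sidt1 (0.72), Gpatch11 (0.69) and Neurl1a (0.69), of which Gpatch11 stood at 43.6 CPM in controls and 43.5 CPM after the drug. Ppm1d was most like Stk11 (0.75), Nemp2 (0.74) and Prkcd (0.69).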

How the data were processed

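Single cells were lysed and their mRNA was reverse transcribed, amplified and tagged with a low-input SMART-seq kit, per the labels' protocols. The values deposited by the authors are estimated counts, with genes in rows and cells in columns, and 34.0% of the values above 0 were not whole. Partek, Bowtie2, HISAT2, DESeq2 and the build mm10 are listed, per the submitters' processing notes, without role, order or version, and the annotation is not given in the sources used here. Reads that match several gene copies may be split between them. All 61 columns were matched by name, and 0 were left unused. In 22 rows, with 0.144% of counts, symbols had become dates; they stayed in the totals.

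Estimated counts were rounded and summed per group, and CPM was taken over the 23927 rows. Ratios are log2 of summed CPM with a floor of 3 counts. Their 95% intervals are exact conditional binomial (Clopper-Pearson), CPM intervals are exact Poisson, and shares have exact binomial intervals. With 1 sample per group no test was made. The members and gene lists were chosen with earlier results of these data known. Genes were named by rule: the members, Cdkn1a, all paralogs, the 3 highest and 2 lowest of each list in oocytes, and the 3 genes most like each member. On simulated data with 200 genes changed by 2 on the log2 scale, median ratios of 1.97 and -2.03 were recovered in oocytes. The simulated cells of a group shared the same profile and differed by depth and counting error only. This run therefore checks the calculation and not how the ratios behave under the spread between real cells. Alternatives were other summaries, edgeR TMM and DESeq2 scaling, level filters, pseudocounts, marker limits (some added after the data were seen) and leaving out each cell. Python 3.11.15 (scipy 1.17.1), R 4.3.3, edgeR 4.0.16 and DESeq2 1.42.0 were used. mm10 corresponds to GRCm38, the build of the annotation and promoters.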

Additional observations from a re-analysis of the deposited data

How the results depend on the processing

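No paired analysis was possible because the result comes from no test and no label ties the numbers of cells in different groups to an animal. In oocytes the median ratio of the 5 genes (1.10) was 1.23 from mean CPM of cells, 1.20 in oocytes under 200 CPM of granulosa markers and 1.01 without doxorubicin oocyte 4, and it ranged from 1.01 to 1.34 over leaving out single cells. The count of 3 genes at 1 or more became 1 at a threshold of 2. In libraries labelled granulosa the median (1.47) was 1.51 from mean CPM, 5.33 from medians of log2(CPM + 1), 1.37 with own markers higher (1.63 without doxorubicin library 13 and 1.42 without 15), 1.77 with them above every other marker sum and 1.87 past the marker limit, and 1.25 to 1.59 leaving out single cells. The count of 4 became 2 at a threshold of 2. Between control cell types the median (0.71) was 0.75 from mean CPM, 4.38 from medians, 0.77 with DESeq2 size factors, 1.19 with own markers higher, 1.48 with them above every other sum and 1.15 past the limit, and 0.61 to 1.24 leaving out cells, with the top value without control granulosa library 13. The count of 2 was 4 from medians, 1 at a threshold of 2, and 2 to 3 leaving out cells. The share of all genes was not taken at a threshold of 2, from medians or without single cells. The changed counts in each comparison thus have nothing to be set against. Signs turned for Mdm4 in oocytes (-0.22 from medians, -0.11 to 0.066 leaving out cells, lowest without doxorubicin oocyte 2), for Ppm1b in oocytes past the limit (0.044), for Ppm1a (0.030 from mean CPM, 0.093 past the limit, -0.32 to 0.088 leaving out cells) and for Trp53inp2 (0.10 past the limit, -0.38 to 0.045 leaving out cells). They also turned for Mdm4 in granulosa libraries (-0.11 from mean CPM, -0.85 to 1.21 leaving out cells) and for Ppm1d there (-0.088 past the limit) and between cell types (-0.039 with own markers higher, -0.047 with them above every other sum, -0.44 past the limit). The limit for granulosa libraries kept doxorubicin libraries 7, 9 and 12, whose oocyte markers summed higher. The share of all oocyte genes at 1 or more was 11.5% with a filter at 1 CPM and 3.15% at 20 CPM. The scalings moved no member beyond its interval in either drug comparison. The limits on every other marker sum and on libraries 13 and 15 were chosen after the data were seen. The causes were not tested. The intervals of levels and ratios cover counting only, and those of shares take the cells as independent. The number of cells and the unknown number of animals limit what these values describe.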
